A study of Mus musculus with 9 samples.

Results

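Transcripts of 33 genes that serve as markers of radial glia, astrocytes or oligodendrocytes were followed in mouse cells converted from fibroblasts toward GABAergic interneurons, in interneurons of the embryonic cortex, and in the fibroblasts themselves. The genes were chosen as known glial markers, by symbol, with earlier results of these data known. All 33 were found among the 37224 genes of the deposited count table. They were taken in 3 groups, with 11 radial glia genes, 8 astrocyte genes and 14 oligodendrocyte genes. The iGABA cells were fibroblasts after 14 days of reprogramming, of which the first 2 were in fibroblast medium and the rest in neuronal medium. The labels do not list the factors used for the conversion. The GAD67 cells were primary cortical interneurons from E18.5 embryos, named for the GABA-making enzyme that Gad1 encodes. The MEF cells were primary fibroblasts of E13.5 embryos, at passage P0. Their labels also mention a shift to neuronal inducing medium without saying whether it came before RNA extraction. All cells came from the C57BL/6 strain. The iGABA and GAD67 cells were sorted for GFP before lysis and the MEF cells were not, and the labels do not name the GFP reporter of the iGABA cells. Each kind of cell had 3 libraries, and nothing in the labels says that these came from separate cultures or animals, so the p-values speak only to the spread among these libraries, part or all of which may be technical.

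Radial glia are the neural stem cells of the developing brain. They give rise first to neurons and later to astrocytes and to precursors of oligodendrocytes, and many of their genes, such as the glutamate transporter gene Slc1a3, stay on in astrocytes. Astrocytes take up glutamate, convert it to glutamine and are coupled by gap junctions, and oligodendrocytes wrap axons in myelin. Entry into the oligodendrocyte lineage depends on the transcription factor Olig2, acting with Sox10 and Nkx2-2, and the genes of myelin proteins are switched on later with the factor Myrf. Several markers of these cells are also made by mesenchymal cells, among them Vim, Gja1 and Cspg4.

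The promoters of 4 members around which the results turn are shown here, from 250 bases before to 50 bases after the start of transcription (RefSeq, build GRCm38.p6, 5′ to 3′ on the gene's strand). Cnp and Nes stood far higher in iGABA cells than in the other cells, Slc1a2 was high in GAD67 cells, and Olig2 had no count outside GAD67 cells. Capitals mark matches, on either strand, to the half-site of nuclear factor I proteins (TTGGCA), which are encoded by the members Nfia, Nfib and Nfix, to Sox protein sites (ACAATGG or ACAAAGG), or to E-boxes of basic helix-loop-helix factors such as Olig2 (CAGCTG or CAGATG). These motifs do not overlap in the sequences shown.
Cnp, chr11:100574689-100574988, plus strand: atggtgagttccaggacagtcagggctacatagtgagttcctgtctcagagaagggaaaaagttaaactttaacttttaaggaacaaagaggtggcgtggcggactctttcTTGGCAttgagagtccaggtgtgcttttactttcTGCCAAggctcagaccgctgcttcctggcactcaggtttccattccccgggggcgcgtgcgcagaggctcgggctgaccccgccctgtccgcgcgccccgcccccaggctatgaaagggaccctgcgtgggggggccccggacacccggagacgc
Nes, chr3:87970843-87971142, plus strand: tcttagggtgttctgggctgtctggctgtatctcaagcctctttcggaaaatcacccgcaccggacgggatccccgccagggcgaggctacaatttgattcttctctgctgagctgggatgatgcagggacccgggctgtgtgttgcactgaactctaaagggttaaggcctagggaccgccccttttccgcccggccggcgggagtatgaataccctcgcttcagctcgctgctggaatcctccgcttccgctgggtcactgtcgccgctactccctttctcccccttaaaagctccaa
Slc1a2, chr2:102706188-102706487, plus strand: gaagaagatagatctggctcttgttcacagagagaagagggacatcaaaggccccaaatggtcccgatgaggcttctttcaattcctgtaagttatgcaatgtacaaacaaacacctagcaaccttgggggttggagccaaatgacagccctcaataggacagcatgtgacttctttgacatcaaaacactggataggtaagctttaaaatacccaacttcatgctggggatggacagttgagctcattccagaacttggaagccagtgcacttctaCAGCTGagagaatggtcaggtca
Olig2, chr16:91225300-91225599, plus strand: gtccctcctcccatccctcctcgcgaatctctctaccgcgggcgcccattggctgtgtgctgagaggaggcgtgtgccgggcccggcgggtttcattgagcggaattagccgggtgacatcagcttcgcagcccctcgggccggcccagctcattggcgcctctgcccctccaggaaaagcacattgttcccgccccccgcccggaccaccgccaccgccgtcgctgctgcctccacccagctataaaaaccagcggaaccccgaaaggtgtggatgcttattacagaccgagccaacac
The Cnp promoter held 2 matches to the nuclear factor I half-site, and the Slc1a2 promoter held 1 E-box. None of these letters were found in the windows of Nes and Olig2. The Slc1a2 window, which begins at 102706188, lies inside the gene as counted (102658659 to 102790784). It therefore covers a start within the gene and not its first base. Promoter sequences were at hand for 27 of the 33 members, 35 windows in all. The half-site was present in 3 of the 35 windows, those of Cnp, Cspg4 and S100b, and in 14.1% of 32851 promoter windows of the genome. A Sox site was present in 3 of the 35 windows, against 9.3% of all windows, and an E-box in 9 of the 35, against 30.6% of all windows. The Sox windows belonged to 2 genes, Mag and Nfix, and those of Mag overlap each other. The E-box windows belonged to 8 genes. A match is a description of the sequence and was not tied to any binding here.

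Library totals ran from 27501521 to 38975523 counts, so a gene with no count in a library may have held up to 3 counts, a limit that covers counting error only. Levels are given as normalised CPM, which are counts scaled to library size after TMM normalisation, a method that sets libraries to a common scale by the bulk of their genes. Differences were tested with edgeR's quasi-likelihood test over 18085 genes that passed a low-count filter, and a gene rose, fell or differed when its Benjamini-Hochberg adjusted p was under 0.05. Of the members, 25 passed the filter. The labelled cell types bore their markers. The summed level of 12 neuron markers was 1475 to 1520 CPM in iGABA, 9483 to 10100 CPM in GAD67 and 105.5 to 108 CPM in MEF libraries, and that of 12 fibroblast markers was 625 to 904, 136 to 143 and 80020 to 88720 CPM in the same order. The 10 microglia and macrophage markers summed to 11.1 to 13.1 CPM in iGABA, 6.25 to 7.88 CPM in GAD67 and 505 to 548 CPM in MEF libraries, and the part of such cells in the MEF levels was not tested.

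Radial glia genes split in iGABA cells. The intermediate filament gene Nes and, at lower level, Ttyh1 and Fabp7 stood above the MEF level, while Ptprz1, Vim, Prom1, Hopx, Slc1a3, Nfia and Nfib stood below it. Against MEF cells, 3 of 11 radial glia genes rose, 7 fell and 1, Nfix, did not pass, where 81.9% of all tested genes were called, 42.1% higher and 39.7% lower. Their median log2 fold change was -1.46, against 0.05 over all tested genes. With scaling by library size alone, the split of all called genes moved from 51.5% higher to 65.3% higher and the median of all genes to 0.46, so small differences in this comparison hold relative to the TMM scale. In bulk RNA, fewer cells of a type and less RNA per cell cannot be told apart.

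Nes (ENSMUSG00000004891, mm10 chromosome 3, 87971078 to 87980451) encodes nestin, an intermediate filament protein of neural progenitors. It stood at 430.3, 474 and 414 CPM in the 3 iGABA libraries, at 47.1, 42.7 and 52.0 CPM in GAD67 and at 62.0, 69.0 and 65.4 CPM in MEF libraries. All iGABA libraries lay above all others, and GAD67 libraries lay lowest. Nes had a log2 fold change of 2.75 in iGABA against MEF cells (edgeR, 95% interval 2.57 to 2.92, adjusted p = 2.96e-12) and 3.22 in iGABA against GAD67 cells (95% interval 3.04 to 3.39, adjusted p = 8.03e-13). GAD67 cells were slightly lower than MEF cells, with a log2 fold change of -0.47 (edgeR, adjusted p = 8.57e-05). Nes was singled out after its values were seen.

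Vim (ENSMUSG00000026728, chromosome 2, 13573927 to 13582826) encodes vimentin, the filament protein that radial glia share with fibroblasts. It measured 235, 209.9 and 255 CPM in iGABA libraries, 72.6, 67.6 and 73.4 CPM in GAD67 libraries, and 4333, 4674 and 5059 CPM in MEF libraries. The 3 groups did not overlap. Vim fell by 4.33 on the log2 scale in iGABA against MEF (edgeR, adjusted p = 1.89e-13) and by 6.04 in GAD67 against MEF cells (edgeR, adjusted p = 9.02e-15), and iGABA cells stood at 3.28 times the GAD67 level (edgeR, adjusted p = 6.11e-10). Per kilobase of exon, Vim was still the highest radial glia gene in iGABA cells, at 99.96 ± 9.70 CPM per kb, followed by Nes at 68.5 ± 4.84 and Nfix at 45.6 ± 0.909 CPM per kb (SD, n = 3).

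Fabp7 (ENSMUSG00000019874, chromosome 10, 57784881 to 57788450), the brain fatty acid-binding protein of radial glia, was high in GAD67 cells. It read 1.19, 0.788 and 1.41 CPM in iGABA libraries, 22.7, 23.1 and 24.8 CPM in GAD67 libraries, and 0.512, 0.296 and 0.694 CPM in MEF libraries. The iGABA libraries lay just above the MEF ones and far under the GAD67 ones. Fabp7 rose in iGABA against MEF cells by a log2 fold change of 1.13 (edgeR, 95% interval 0.50 to 1.76, adjusted p = 0.00305). In GAD67 against MEF cells the log2 fold change was 5.53 (edgeR, adjusted p = 3.09e-11), and in iGABA against GAD67 cells it was -4.40 (edgeR, adjusted p = 1.20e-10). Ttyh1 (ENSMUSG00000030428, chromosome 7, 4119408 to 4136706), a tweety-family membrane protein, showed the same order. It stood at 6.11, 4.23 and 9.32 CPM in iGABA, 32.8, 31.0 and 31.4 CPM in GAD67 and 1.17, 1.41 and 0.996 CPM in MEF libraries, with no overlap between groups. Its log2 fold change was 2.44 in iGABA and 4.73 in GAD67 cells, each against MEF (edgeR, adjusted p = 2.50e-06 and 8.96e-10).

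Ptprz1 (ENSMUSG00000068748, chromosome 6, 22875502 to 23052916), a receptor-type tyrosine phosphatase of radial glia and oligodendrocyte precursors that binds the growth factor pleiotrophin, was low in iGABA cells alone. It measured 4.92, 4.87 and 6.25 CPM in iGABA libraries, 148, 136 and 145 CPM in GAD67 libraries, and 110.3, 108 and 107 CPM in MEF libraries. Ptprz1 had a log2 fold change of -4.35 in iGABA against MEF and -4.75 in iGABA against GAD67 cells (edgeR, adjusted p = 8.30e-14 and 5.16e-14), while GAD67 cells exceeded MEF cells by 0.40 (edgeR, adjusted p = 0.000103). Prom1 (ENSMUSG00000029086, chromosome 5, 43993625 to 44102032), which encodes the membrane protein CD133 of neural stem cells, followed the same course. It stood at 0.841, 0.406 and 0.969 CPM in iGABA, 16.3, 16.4 and 19.8 CPM in GAD67 and 11.5, 11.4 and 11.6 CPM in MEF libraries. The log2 fold change of Prom1 was -3.99 in iGABA against MEF and -4.59 in iGABA against GAD67 cells (edgeR, adjusted p = 7.31e-10 and 1.43e-10). Ptn, the pleiotrophin gene, averaged 4.84 ± 0.725 CPM in iGABA, 82.8 ± 9.36 CPM in GAD67 and 1242 ± 67.7 CPM in MEF cells (SD, n = 3).

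The 3 members of the nuclear factor I family, transcription factors that promote the switch to glia and also act in neurons and other tissues, were expressed in all cells and highest in GAD67 cells. Nfib averaged 123.5 ± 4.55 CPM in iGABA, 797 ± 39.4 CPM in GAD67 and 230 ± 22.0 CPM in MEF cells (SD, n = 3). Nfia averaged 30.8 ± 2.19, 106 ± 9.44 and 84.4 ± 4.85 CPM in the same order. Nfix averaged 335 ± 6.68, 693 ± 82.6 and 339 ± 7.63 CPM, and its log2 difference of -0.02 between iGABA and MEF cells did not pass (edgeR, 95% interval -0.18 to 0.15, adjusted p = 0.854). All 3 were lower in iGABA than in GAD67 cells, by log2 fold changes of -2.69 for Nfib, -1.79 for Nfia and -1.05 for Nfix (edgeR, largest adjusted p = 3.44e-08). Slc1a3, the astrocyte and radial glia glutamate transporter GLAST, averaged 3.70 ± 0.616 CPM in iGABA, 10.2 ± 2.43 CPM in GAD67 and 37.3 ± 2.24 CPM in MEF cells. Hopx, a homeodomain-only protein that marks outer radial glia in human cortex, averaged 0.693 ± 0.0252, 0.606 ± 0.0659 and 7.42 ± 0.234 CPM, and its log2 difference of 0.19 between iGABA and GAD67 cells did not pass (edgeR, 95% interval -0.25 to 0.63, adjusted p = 0.457).

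In the cortical interneurons, Fabp7, Ttyh1, Prom1, Ptprz1 and the nuclear factor I genes stood above the MEF level. Against MEF cells, 7 of 11 were higher in GAD67 cells and 4 lower, where 86.9% of all tested genes were called, 43.1% higher and 43.8% lower, with a median log2 fold change of 0.40 against 0.00 over all tested genes. Set against GAD67 cells directly, 2 of the 11 were higher in iGABA cells, Nes and Vim, 8 were lower, and Hopx did not pass, where 80.6% of all tested genes were called, 41.3% higher and 39.3% lower. The median log2 fold change was -1.79, against 0.02 over all tested genes. The comparisons with MEF cells share the same MEF libraries. Among 22 other radial glia genes, described further on, GAD67 cells were higher than MEF cells in 7 and lower in 12, with a median log2 fold change of -1.62.

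**Figure D1:**
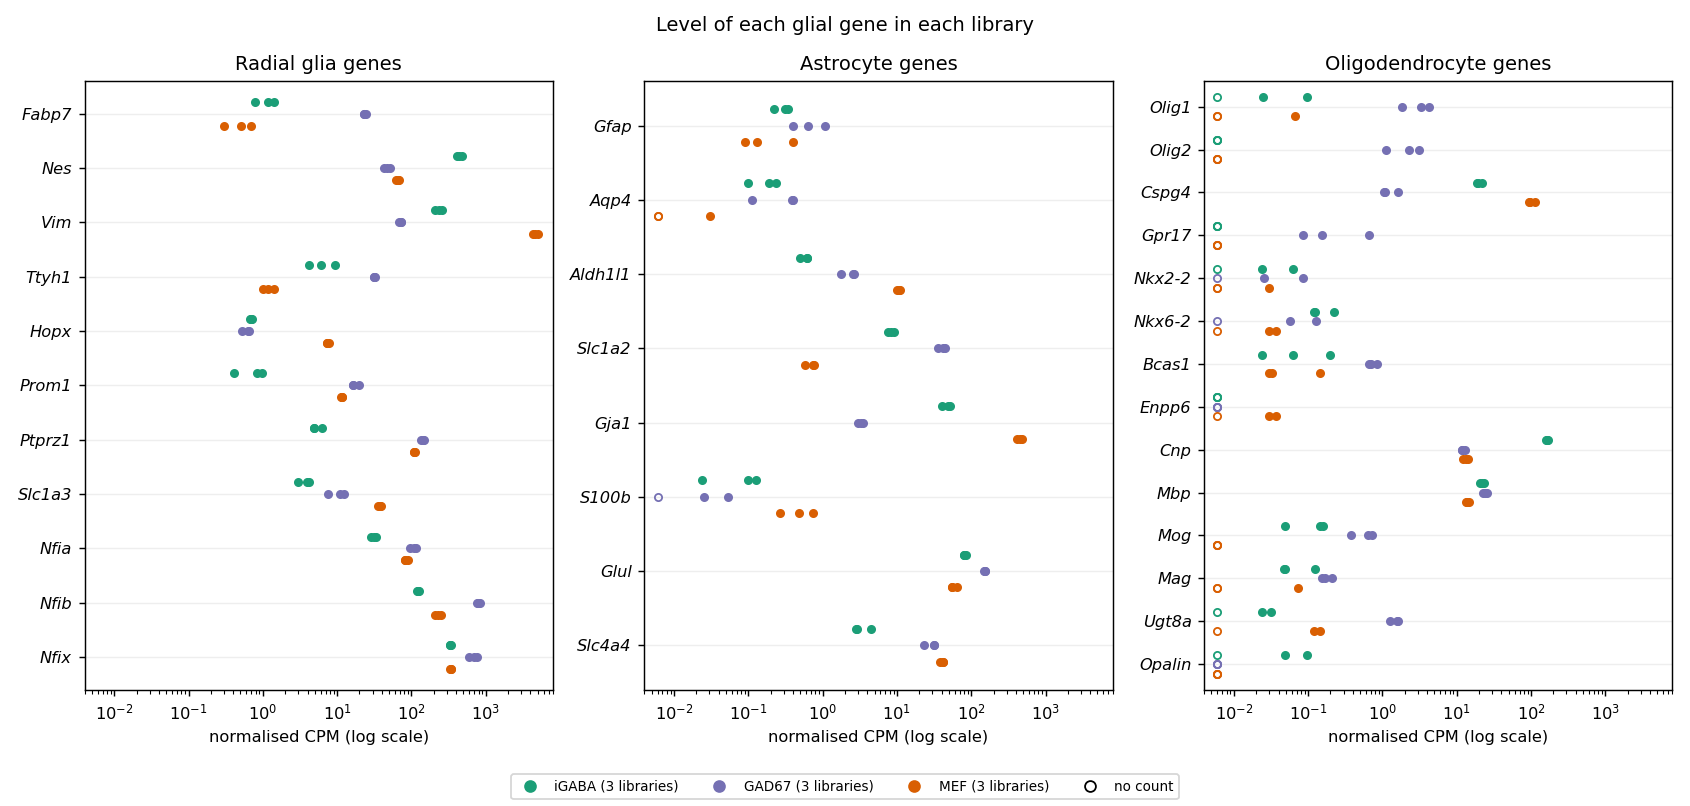
Normalised CPM of each of the 33 members in every library (horizontal log axis) for radial glia, astrocyte and oligodendrocyte genes, with iGABA, GAD67 and MEF libraries as rows of points within each gene and open points at the left edge for libraries with no count. Nes and Cnp libraries of iGABA cells lie above those of the other cells, Vim and Gja1 are highest in MEF cells, and Olig2 has counts in GAD67 libraries alone.

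Astrocyte genes moved both ways. Gfap, the astrocyte filament gene, and Aqp4, the water channel of astrocyte end feet, had at most 1.09 CPM and 0.398 CPM in any library. The glutamate transporter gene Slc1a2 and the glutamine synthetase gene Glul rose in iGABA cells, and Aldh1l1, Gja1 and Slc4a4 fell. Of the 8 genes, 6 passed the low-count filter. Against MEF cells, 2 rose in iGABA cells, 3 fell and Gfap did not pass, with a median log2 fold change of -1.39, so 5 of 6 were called beside 81.9% of all tested genes. GAD67 cells were higher than MEF cells in 3 and lower in 3, with a median of 0.44, beside 86.9% of all genes called. Against GAD67 cells, iGABA cells were higher in 1, Gja1, and lower in 5, with a median of -1.64, beside 80.6% of all genes called.

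Slc1a2 (ENSMUSG00000005089, chromosome 2, 102658659 to 102790784) encodes GLT-1, the main glutamate transporter of mature astrocytes, which some developing neurons also make. It read 9.22, 7.498 and 8.25 CPM in iGABA libraries, 41.6, 35.6 and 45.0 CPM in GAD67 libraries, and 0.732, 0.756 and 0.574 CPM in MEF libraries. The groups did not overlap and iGABA libraries lay between the others. The log2 fold change was 3.60 in iGABA against MEF (edgeR, 95% interval 3.23 to 3.97, adjusted p = 3.74e-10), 5.89 in GAD67 against MEF (edgeR, adjusted p = 6.00e-13) and -2.29 in iGABA against GAD67 cells (edgeR, adjusted p = 4.41e-10).

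Gja1 (ENSMUSG00000050953, chromosome 10, 56377300 to 56390419) encodes connexin 43, the gap junction protein of astrocytes and of fibroblasts. It measured 48.9, 40.2 and 52.6 CPM in iGABA libraries, 3.27, 3.50 and 2.96 CPM in GAD67 libraries, and 418, 457 and 483 CPM in MEF libraries. Each group lay more than 7-fold apart from the next. The log2 fold change was -3.26 in iGABA and -7.12 in GAD67 cells, each against MEF, and 3.86 in iGABA against GAD67 cells (edgeR, adjusted p = 2.85e-12, 1.07e-14 and 4.25e-12). Gja1 per kilobase was the highest astrocyte gene in MEF cells, at 146 ± 10.6 CPM per kb, whereas Glul led in iGABA and GAD67 cells at 24.5 ± 0.646 and 45.2 ± 0.637 CPM per kb (SD, n = 3).

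Aldh1l1 (ENSMUSG00000030088, chromosome 6, 90486427 to 90600203), a folate enzyme used to mark astrocytes, stood at 0.618, 0.501 and 0.625 CPM in iGABA, 2.61, 2.60 and 1.78 CPM in GAD67 and 10.1, 10.8 and 11.1 CPM in MEF libraries. Slc4a4 (ENSMUSG00000060961, chromosome 5, 88886818 to 89239653), a sodium bicarbonate cotransporter, read 2.89, 4.44 and 2.85 CPM in iGABA, 31.4, 31.1 and 23.5 CPM in GAD67 and 41.1, 41.7 and 38.0 CPM in MEF libraries. For each gene, iGABA libraries were lowest and MEF libraries highest, with no overlap. Aldh1l1 had log2 fold changes of -4.20 in iGABA and -2.19 in GAD67 cells against MEF (edgeR, adjusted p = 1.86e-10 and 1.47e-08). Slc4a4 had -3.55 and -0.49 (edgeR, adjusted p = 2.33e-10 and 0.00388), and the call of the second was lost when libraries were scaled by size alone (log2 fold change -0.27, adjusted p = 0.0857). In iGABA against GAD67 cells the log2 fold change was -2.01 for Aldh1l1 and -3.07 for Slc4a4 (edgeR, adjusted p = 1.00e-06 and 1.06e-09).

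Glul averaged 81.5 ± 2.15 CPM in iGABA, 150 ± 2.12 CPM in GAD67 and 58.5 ± 5.30 CPM in MEF cells (SD, n = 3), with a rise of 0.48 on the log2 scale in iGABA against MEF cells (edgeR, adjusted p = 1.23e-05). Gfap had 9, 13 and 11 counts in iGABA libraries, 25, 41 and 14 counts in GAD67 libraries, and 11, 4 and 3 counts in MEF libraries. Its difference between iGABA and MEF cells did not pass (edgeR, log2 fold change 0.53, 95% interval -0.77 to 1.82, adjusted p = 0.424). Between iGABA and GAD67 cells it was called at a log2 fold change of -1.28 (edgeR, adjusted p = 0.0213), and that call was lost without iGABA replicate 4 (adjusted p = 0.0825), without GAD67 replicate 8 (adjusted p = 0.117) and with library size alone (adjusted p = 0.0505). Aqp4 had 20 counts over the iGABA libraries, 34 over GAD67 and 1 over MEF, and S100b, a calcium-binding protein of astrocytes and Schwann cells, had 9, 3 and 44 counts. Neither passed the filter. The ratio of Aqp4 levels was 15.9 in iGABA over MEF libraries (exact 95% counting interval 2.54 to 659), and that of S100b was 18.1 in MEF over GAD67 libraries (exact 95% counting interval 5.81 to 91.3).

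**Figure D2:**
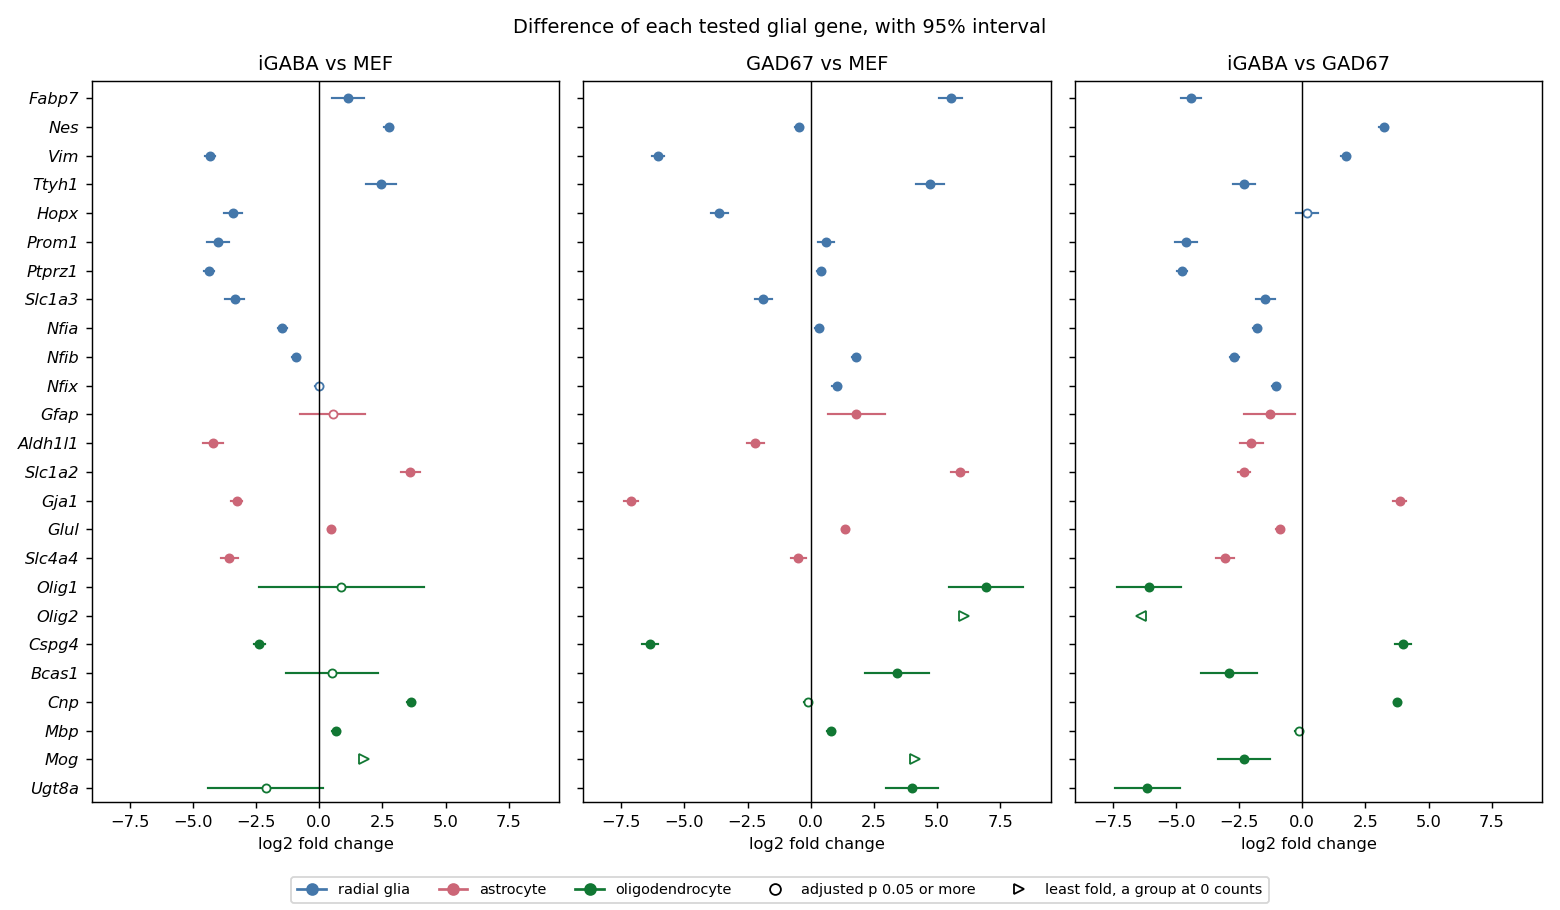
Log2 fold change (horizontal axis) with its 95% interval from edgeR for the 25 tested members in each comparison, filled where adjusted p was under 0.05, with triangles for the least fold where a group had no count (Olig2 is left out of iGABA vs MEF, where neither group had a count). Nes and Cnp are higher in iGABA cells than in either other cell type, and Ptprz1 and Prom1 are lower than in either.

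The oligodendrocyte genes did not move as a block. Olig1, Olig2 and Gpr17 were at or close to 0 in iGABA cells and present at low level in GAD67 cells, the precursor gene Cspg4 was higher in iGABA than in GAD67 cells, and Cnp, a gene of an abundant myelin-associated enzyme, was far higher in iGABA cells than elsewhere. Genes of mature myelin other than Mbp were near 0 in all cells. Of the 14 genes, 8 passed the filter, and Olig1, Olig2, Mog, Bcas1 and Ugt8a did so through GAD67 libraries, so their difference there follows in part from the filter. Against MEF cells, 3 tested genes rose in iGABA cells, 1 fell and 4 did not pass, among them Olig2 with no count in either group, with a median log2 fold change of 0.59, so 4 of 8 were called beside 81.9% of all tested genes. Against the same MEF libraries, 6 were higher in GAD67 cells, 1 was lower and Cnp did not pass, with a median of 3.71, beside 86.9% of all genes called. Against GAD67 cells, 2 were higher in iGABA cells, Cnp and Cspg4, 5 were lower, and Mbp did not pass, with a median of -2.60, beside 80.6% of all genes called.

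Olig2 (ENSMUSG00000039830, chromosome 16, 91225550 to 91228677), the basic helix-loop-helix factor that founds the oligodendrocyte lineage and is also present in ventral forebrain progenitors, had no count in any iGABA or MEF library. GAD67 libraries held 90, 116 and 40 counts, or 2.30, 3.08 and 1.13 CPM. Set against 3 counts over the group, GAD67 cells were at least 83.5-fold above iGABA cells and at least 66.3-fold above MEF cells (edgeR, adjusted p = 1.67e-05 and 2.16e-05). Its neighbour and relative Olig1 (ENSMUSG00000046160, chromosome 16, 91269769 to 91271939) had 1, 4 and 0 counts in iGABA libraries, 130, 159 and 65 in GAD67 libraries, and 0, 2 and 0 in MEF libraries. Only GAD67 libraries reached 1 CPM of Olig1. The log2 fold change of Olig1 was -6.06 in iGABA against GAD67 cells (edgeR, 95% interval -7.31 to -4.80, adjusted p = 4.80e-07), and GAD67 exceeded MEF cells by a count ratio of 143 (exact 95% counting interval 39.3 to 1187).

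Gpr17, a receptor of oligodendrocyte precursors about to differentiate, was likewise counted in GAD67 libraries alone, with 6, 25 and 3 counts. That is at least 11.5-fold above iGABA and at least 9.17-fold above MEF cells. Nkx2-2 and Nkx6-2, homeodomain factors of ventral progenitors and of oligodendrocytes, had 3 and 18 counts over the iGABA libraries, 4 and 7 over GAD67, and 1 and 2 over MEF. Such counts are too few for a difference in Nkx2-2 to be detected, and the Nkx6-2 ratio of iGABA over MEF libraries was 7.15 (exact 95% counting interval 1.71 to 63.6). Cspg4 (ENSMUSG00000032911, chromosome 9, 56865104 to 56899870) encodes the proteoglycan NG2 of oligodendrocyte precursors, pericytes and mesenchymal cells. It stood at 19.1, 18.8 and 21.9 CPM in iGABA, 1.05, 1.09 and 1.64 CPM in GAD67 and 94.9, 115 and 95.9 CPM in MEF libraries, with no overlap. Its log2 fold change was -2.36 in iGABA and -6.35 in GAD67 cells against MEF (edgeR, adjusted p = 1.48e-10 and 1.10e-13).

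Cnp (ENSMUSG00000006782, chromosome 11, 100574904 to 100591729) encodes a cyclic nucleotide phosphodiesterase found in the uncompacted membrane of myelin. It measured 165, 169.5 and 161 CPM in iGABA libraries, 11.8, 11.7 and 13.02 CPM in GAD67 libraries, and 13.4, 12.3 and 14.0 CPM in MEF libraries. All iGABA libraries lay more than 11 times above every other library, and the other groups overlapped. Cnp rose by a log2 fold change of 3.64 in iGABA against MEF (edgeR, 95% interval 3.49 to 3.79, adjusted p = 5.57e-14) and 3.76 in iGABA against GAD67 cells (edgeR, 95% interval 3.62 to 3.91, adjusted p = 5.00e-14). GAD67 and MEF cells differed by -0.12 on the log2 scale (edgeR, 95% interval -0.28 to 0.03, adjusted p = 0.121). Cnp shares 154 of its 3639 exon bases with Dnajc7 on the opposite strand, and whether reads were counted by strand is not given in the sources used here. Dnajc7 averaged 186 ± 8.09 CPM in iGABA, 271 ± 6.89 CPM in GAD67 and 96.7 ± 6.71 CPM in MEF cells (SD, n = 3), and the part of its reads in the Cnp level was not tested.

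Among genes of compact myelin and its assembly, Mbp, the myelin basic protein gene whose locus also gives the golli transcripts of neurons and immune cells, averaged 22.0 ± 1.18 CPM in iGABA, 24.1 ± 1.57 CPM in GAD67 and 13.9 ± 0.600 CPM in MEF cells. The iGABA cells exceeded MEF cells by 0.67 on the log2 scale (edgeR, adjusted p = 5.05e-06), and their difference from GAD67 cells did not pass (edgeR, log2 fold change -0.14, 95% interval -0.30 to 0.03, adjusted p = 0.121). Without GAD67 replicate 9 it was called (log2 fold change -0.20, adjusted p = 0.0281). Mog, the myelin oligodendrocyte glycoprotein gene, had 2, 6 and 5 counts in iGABA libraries, 15, 24 and 26 in GAD67 libraries, and none in MEF libraries. These are at least 3.44-fold for iGABA and at least 17.5-fold for GAD67 over MEF cells (edgeR, adjusted p = 0.00637 and 2.96e-05). Ugt8a, which makes the galactolipids of myelin, had 0, 1 and 1 counts in iGABA libraries, 63, 47 and 55 in GAD67 libraries, and 4, 0 and 4 in MEF libraries. Ugt8a was 84.0 times higher in GAD67 than in iGABA libraries (exact 95% counting interval 22.9 to 699, edgeR adjusted p = 5.86e-07). Its difference between iGABA and MEF cells did not pass (edgeR, log2 fold change -2.12, adjusted p = 0.0763) and was called without MEF replicate 2 (log2 fold change -2.70, adjusted p = 0.0106).

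Bcas1, a gene of early myelinating oligodendrocytes, averaged 0.0948 ± 0.0914 CPM in iGABA, 0.737 ± 0.0940 CPM in GAD67 and 0.0698 ± 0.0663 CPM in MEF cells (SD, n = 3), higher in GAD67 than in MEF cells by a log2 fold change of 3.41 (edgeR, adjusted p = 0.000103). Mag, a glycoprotein of the inner myelin membrane, had 8 counts over the iGABA libraries, 20 over GAD67 and 2 over MEF. Opalin, a membrane protein of mature oligodendrocytes, had 2, 4 and 0 counts in iGABA libraries and none in GAD67 or MEF libraries. Enpp6, an enzyme of newly forming oligodendrocytes, had no count in iGABA or GAD67 libraries and 1, 0 and 1 counts in MEF libraries.

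**Figure D3:**
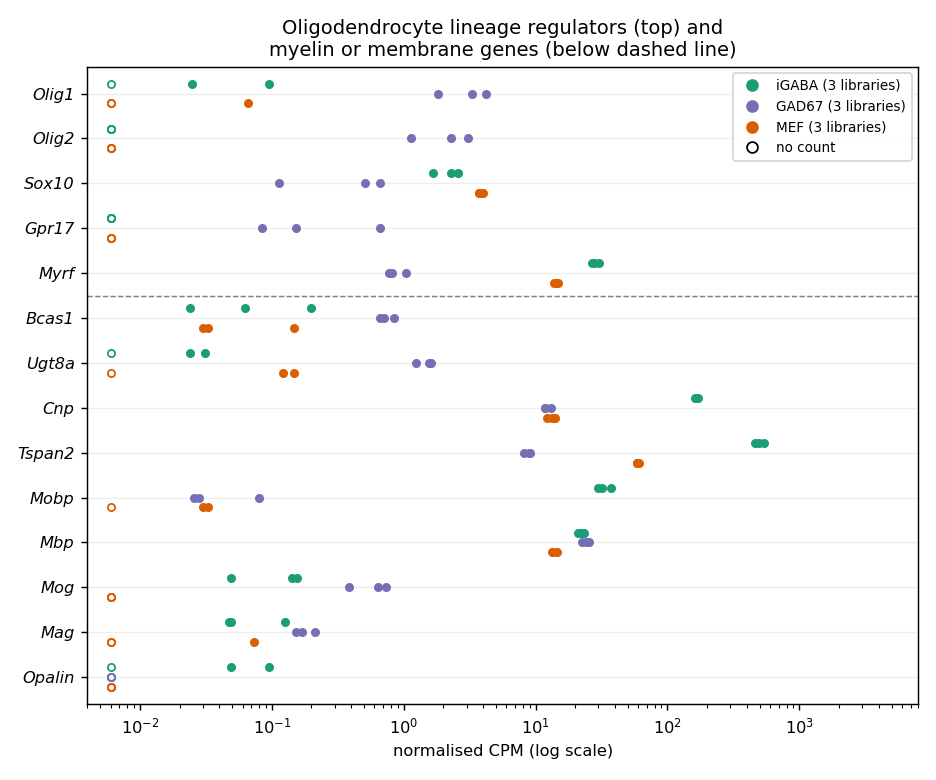
Normalised CPM in every library (horizontal log axis, open points at the left edge for no count) of oligodendrocyte regulators and precursor genes above the dashed line and of myelin or membrane genes below it, in iGABA, GAD67 and MEF cells. The iGABA libraries lack Olig2 counts and hold the highest levels of Cnp, Tspan2 and Mobp, while Mog, Mag and Opalin stay under 1 CPM in all libraries.

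Further genes of the same cell types, from lists of other markers, showed which neighbours of the members moved with them. Of 25 other oligodendrocyte genes in the table, 20 were tested, and 10 rose, 6 fell and 4 did not pass in iGABA against MEF cells, with a median log2 fold change of 0.76. Over all tested genes in that comparison, 42.1% rose and 39.7% fell. The named increases were Mobp, a myelin-associated protein gene, and Tmem88b, and the named decreases were the tight junction gene Cldn11 and the proteoglycan gene Vcan. Mobp stood at 31.9, 37.2 and 29.95 CPM in iGABA libraries, 0.0255, 0.0795 and 0.0282 CPM in GAD67 libraries, and 0, 0.0329 and 0.0302 CPM in MEF libraries. The ratio of iGABA over MEF libraries was 1512 (exact 95% counting interval 418 to 12490), and the log2 fold change against GAD67 cells was 9.42 (edgeR, adjusted p = 6.58e-13). Mobp passed the low-count filter through iGABA libraries alone, so its differences there follow in part from the filter. Tmem88b averaged 14.8 ± 0.588 CPM in iGABA, 0.560 ± 0.0808 CPM in GAD67 and 0.202 ± 0.0719 CPM in MEF cells. Tspan2, a tetraspanin of oligodendrocytes and other cells, averaged 496 ± 39.4, 8.74 ± 0.527 and 59.3 ± 1.24 CPM in the same order. Cldn11 had a log2 fold change of -6.58 and Vcan of -2.67 in iGABA against MEF cells (edgeR, adjusted p = 7.51e-11 and 5.64e-12). Cldn11 passed the filter through MEF libraries alone, so its differences from MEF cells follow in part from the filter.

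Myrf and Sox10 were singled out after their values were seen. Myrf averaged 28.2 ± 1.86 CPM in iGABA, 0.878 ± 0.148 CPM in GAD67 and 14.3 ± 0.535 CPM in MEF cells. Sox10, the factor of oligodendrocytes and Schwann cells, averaged 2.19 ± 0.468, 0.429 ± 0.284 and 3.83 ± 0.172 CPM, and its fall of 0.81 on the log2 scale in iGABA against MEF cells (edgeR, adjusted p = 0.0165) did not pass when libraries were scaled by size alone (adjusted p = 0.214). Of 11 tested Schwann cell and neural crest markers, Sox10 among them, 4 rose and 7 fell in iGABA against MEF cells. Over all tested genes, 42.1% rose and 39.7% fell. The crest factor gene Foxd3 had no count in iGABA or GAD67 libraries. The part of such cells in these levels was not tested.

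For GAD67 against MEF cells, 10 of the 20 other oligodendrocyte genes were higher, 7 lower and 3 did not pass. Their median log2 fold change was 0.56. Over all tested genes, 43.1% were higher and 43.8% lower. Ermn, an actin-binding protein of myelinating cells, averaged 6.204 ± 2.12 CPM in GAD67 and 0.0122 ± 0.0211 CPM in MEF cells, a ratio of 558 (exact 95% counting interval 99.8 to 22080). Ermn passed the low-count filter through GAD67 libraries alone, so its differences there follow in part from the filter. Omg, a glycoprotein of oligodendrocytes and neurons, averaged 1.61 ± 0.261 CPM in GAD67 and 0.0223 ± 0.0196 CPM in MEF cells, a ratio of 72.8 (exact 95% counting interval 19.9 to 606). Cldn11 and Pdgfra, the growth factor receptor of oligodendrocyte precursors and of fibroblasts, were lower, by log2 fold changes of -6.81 and -6.61 (edgeR, adjusted p = 4.12e-11 and 2.87e-13). Against GAD67 cells, 11 were higher in iGABA cells, led by Mobp and Tspan2, 5 were lower, led by Ermn and the transcription factor gene Sox6, and 4 did not pass. The median log2 fold change of these 20 genes was 0.41, where that of the 8 tested oligodendrocyte members was -2.60. Over all tested genes in that comparison, 41.3% were higher and 39.3% lower. Ermn averaged 0.0291 ± 0.0315 CPM in iGABA cells and was 234 times higher in GAD67 cells (exact 95% counting interval 79.8 to 1138), and Sox6 averaged 4.97 ± 0.575 CPM in iGABA against 73.3 ± 5.56 CPM in GAD67 cells.

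In iGABA against MEF cells, 42.1% of all tested genes rose and 39.7% fell. Beside this, the other radial glia genes, all 22 tested, rose in 7 cases, fell in 14 and did not pass in 1. Their median log2 fold change was -1.14. The neural progenitor factors Sox3 and Sox21 led the rises, with Sox21 at 200.1 ± 10.4 CPM in iGABA, 8.03 ± 1.30 CPM in GAD67 and 0.167 ± 0.0463 CPM in MEF cells. Sox3 averaged 21.9 ± 2.21 CPM in iGABA and 0.0122 ± 0.0211 CPM in MEF cells, where it had 1 count, a ratio of 1997 (exact 95% counting interval 358 to 78890). Ptn and the matrix gene Tnc led the falls, with log2 fold changes of -8.01 and -6.71 (edgeR, adjusted p = 1.71e-14 and 2.71e-14). In GAD67 against MEF cells, 43.1% of all tested genes were higher and 43.8% lower. Of the 22 genes, 7 were higher, 12 lower, and 3 did not pass. Sox1 and Pax6, progenitor factors, were the highest by fold, at 436 ± 59.0 and 57.1 ± 3.27 CPM in GAD67 cells against 0.322 ± 0.158 and 0.0762 ± 0.0494 CPM in MEF cells. Pax6 passed the low-count filter through GAD67 libraries alone, so its differences from GAD67 cells follow in part from the filter. The Notch target Hes1 and Tnc were the lowest, at log2 fold changes of -6.93 and -6.01 (edgeR, adjusted p = 1.35e-14 and 2.04e-14).

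Set against GAD67 cells, 11 of the 22 other radial glia genes were higher in iGABA cells, 9 were lower, and 2 did not pass. The median log2 fold change of these 22 genes was 0.60, where that of the 11 radial glia members was -1.79. Over all tested genes, 41.3% were higher and 39.3% lower. Hes1 averaged 33.7 ± 2.38 CPM in iGABA and 0.551 ± 0.124 CPM in GAD67 cells (SD, n = 3), and Sox21 was the other leading rise. Pax6 and Sox1 were lowest by fold, at 0.0401 ± 0.0496 and 5.62 ± 0.853 CPM in iGABA cells, which are log2 fold changes of -10.24 and -6.27 (edgeR, adjusted p = 2.26e-13 and 2.17e-13).

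Of 24 other astrocyte genes, of which Sox9 also stood among the radial glia genes, 21 were tested. In iGABA against MEF cells 9 rose, 9 fell and 3 did not pass, beside 42.1% higher and 39.7% lower over all tested genes. Bcan, a proteoglycan of the brain matrix, averaged 43.8 ± 1.83 CPM in iGABA, 15.5 ± 5.49 CPM in GAD67 and 0.0954 ± 0.0573 CPM in MEF cells. Slc6a11, the astrocyte GABA transporter GAT-3, averaged 6.54 ± 0.541 CPM in iGABA and 0.0210 ± 0.0183 CPM in MEF cells, a ratio of 298 (exact 95% counting interval 82.2 to 2466). The secreted protease gene Htra1 and the clusterin gene Clu led the falls, with log2 fold changes of -5.78 and -4.72 (edgeR, adjusted p = 2.47e-13 and 7.71e-12). GAD67 cells were higher than MEF cells in 9 and lower in 10, with 2 that did not pass. Over all tested genes in that comparison, 43.1% were higher and 43.8% lower. Ncan, a proteoglycan also made by neurons, averaged 754 ± 45.2 CPM in GAD67 and 0.482 ± 0.0383 CPM in MEF cells, and Mlc1, an astrocyte membrane protein, was at least 126-fold higher in GAD67 cells, as MEF libraries held no count. Mlc1 passed the low-count filter through GAD67 libraries, so its differences there follow in part from the filter. The urea transporter gene Slc14a1 and Htra1 were lowest. Slc14a1 was 648 times higher in MEF than in GAD67 libraries (exact 95% counting interval 179 to 5361), which held 2 counts, and Htra1 had a log2 fold change of -7.78 (edgeR, adjusted p = 2.92e-14). Against GAD67 cells, iGABA cells were higher in 9, led by the tetraspanin gene Cd9 at 279 ± 7.34 against 4.41 ± 0.482 CPM and by Slc14a1 at 1.17 ± 0.198 against 0.0182 ± 0.0158 CPM, a ratio of 64.8 (exact 95% counting interval 17.6 to 541). They were lower in 10, led by Mlc1 and Ncan with log2 fold changes of -3.60 and -3.48 (edgeR, adjusted p = 1.98e-05 and 7.80e-14), and 2 did not pass. Over all tested genes, 41.3% were higher and 39.3% lower in iGABA than in GAD67 cells.

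The GAD67 libraries differed among themselves in some glial genes. Replicate 9 held 0.420 times the mean Olig2 level of replicates 7 and 8, 0.487 times that of Olig1, 0.458 times that of Gfap, 0.651 times that of Slc1a3 and 0.684 times that of Aldh1l1. Other members, such as Fabp7 at 1.08 times and Slc1a2 at 1.17 times, did not share this, and Cspg4 and Mog were higher in replicate 9, at 1.54 and 1.44 times. Among members with a mean of at least 0.5 CPM in GAD67 cells, 1 of 11 radial glia genes, 1 of 6 astrocyte genes and 2 of 8 oligodendrocyte genes lay under 2/3 of the other libraries, beside 5.58% of all such genes. Markers of other brain cells differed between the same libraries. The 8 ependymal and choroid plexus markers summed to 50.05, 62.7 and 23.5 CPM in replicates 7, 8 and 9, led by the choroid plexus gene Ttr at 45.7, 59.2 and 20.2 CPM, and Tmem212 had no count. The 8 endothelial markers summed to 30.8, 16.0 and 54.9 CPM, highest in replicate 9, with all 8 genes counted. The 10 microglia and macrophage markers summed to 7.12, 6.25 and 7.88 CPM. The part of such cells in the glial levels was not tested. Replicate 9 held the lowest Olig1 level, so leaving it out was bound to raise the Olig1 difference between GAD67 and MEF cells. The log2 fold change of Olig1 went from 6.94 to 7.22, which is therefore no check on that difference.

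**Figure D4:**
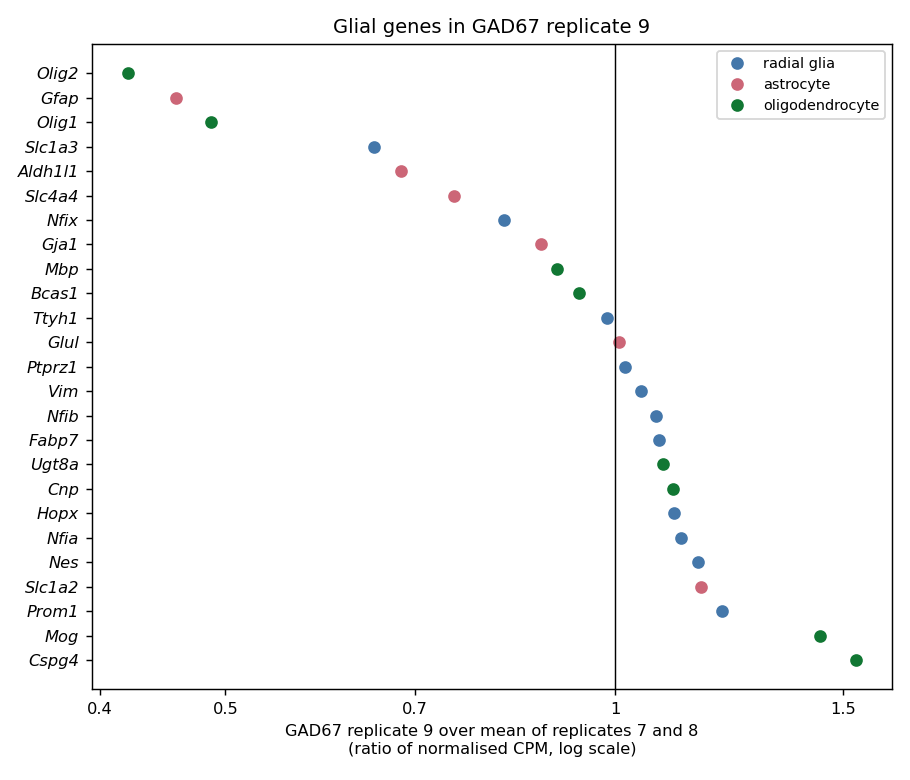
Ratio of normalised CPM in GAD67 replicate 9 to the mean of GAD67 replicates 7 and 8 (horizontal log axis) for the 25 tested members, coloured by list, with a line at equality. Olig2, Gfap and Olig1 lie lowest, at 0.420, 0.458 and 0.487.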

How the data were processed

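RNA of 9 libraries, 3 per kind of cell, was measured by RNA sequencing from strand-marked libraries, per the labels' protocols. The authors deposited whole-number read counts per gene, not normalised. Per the submitters' processing notes, mm10 was the build, and featureCounts, BWA 0.7.2 and DESeq 1.10.1 were the tools. The sources used here do not give the annotation release or the strand setting. Of the members, 13 share some exon bases with a gene on the opposite strand, and if strand was ignored, reads in those shared bases cannot be told apart from that partner's.

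Symbols came from a table of Ensembl gene identifiers and matched 95.2% of the genes. Lhfpl3, an entry of the other oligodendrocyte list, was not analysed here. Counts passed edgeR's filterByExpr (minimum count 10, minimum total 15), were scaled by TMM and fitted over all 9 libraries with edgeR 4.0.16 in R 4.3.3, as a quasi-likelihood test with Benjamini-Hochberg adjustment over 18085 genes. The procedure was tested on simulated data. DESeq2 1.42.0, other scalings, no filter, fits of 2 groups and each library left out were the alternatives. Folds against a group with no count are set against 3 counts over the group, and ratios with 1 to 3 counts have exact intervals. The members and lists were chosen with earlier results of these data known. Values in every library were given for the 3 largest changes per list and comparison and for members with no count in a group, and for other lists the 2 largest changes each way were named. Intervals of edgeR differences were derived from its F statistic. Some genes of the marker lists are not reported here.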

Additional observations from a re-analysis of the deposited data

How the results depend on the processing

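The 75 differences of tested members were recomputed under the alternatives, which gave 1045 values. Of these values, 1032 kept the direction and the side of the threshold, 4 lost the call, 2 gained one and 7 changed sign. No sign change affected a called difference. In iGABA against MEF cells Nfix was at a log2 fold change of 0.40 with library size alone, which was called (adjusted p = 0.000425), at 0.01 without a low-count filter and at 0.01 without iGABA replicate 4, Bcas1 was at -0.65 without iGABA replicate 4, and Olig1 was at -0.56 without iGABA replicate 5. With library size alone, Cnp was at 0.10 in GAD67 against MEF cells and Mbp at 0.06 in iGABA against GAD67 cells. The cause was not tested beyond the scaling itself, which moved the median of all genes to 0.46, 0.22 and 0.22 in iGABA against MEF, GAD67 against MEF and iGABA against GAD67 cells. With each library left out in turn, Nfix ran from -0.04 to 0.01, Bcas1 from -0.65 to 1.51 and Olig1 from -0.56 to 3.75 in iGABA against MEF cells, and the number of oligodendrocyte genes lower in iGABA than in MEF cells ran from 1 to 2, with 2 reached without MEF replicate 2 through Ugt8a, and the other list counts stayed within 1.5 times. No paired analysis was possible because the groups share no replicate number. Depth limits what can be said of Nkx2-2, Nkx6-2, Mag, Opalin and Enpp6, which had at most 20 counts over any group.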

Other observations

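Ciliary and Schwann cell genes gave a few values outside the glial lists, chosen after their values were seen. Rsph1, a protein of motile cilia, stood at 3.46, 4.08 and 3.16 CPM in iGABA libraries, 0.179, 0.239 and 0.0282 CPM in GAD67 libraries, and 0.659, 0.526 and 0.634 CPM in MEF libraries. Foxj1, the transcription factor of motile cilia, was instead highest in GAD67 cells, at 0.569, 0.764 and 0.219 CPM in iGABA libraries, 3.45, 2.31 and 2.79 CPM in GAD67 libraries, and 0.549, 0.329 and 0.362 CPM in MEF libraries. Dhh, the hedgehog ligand of Schwann cells and Sertoli cells, stood at 4.95, 4.54 and 4.41 CPM in iGABA libraries, at most 0.0282 CPM in GAD67 libraries, and 0.293, 0.461 and 0.453 CPM in MEF libraries. For Rsph1 and Dhh all iGABA libraries lay above all others. Pmp22, a myelin protein gene of Schwann cells and fibroblasts, stood at 3.24, 1.58 and 4.60 CPM in iGABA libraries, 0.740, 0.583 and 0.621 CPM in GAD67 libraries, and 314, 318 and 342 CPM in MEF libraries.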
